A study of Mus musculus with 9 samples.

Results

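The genes described here are the 4 members of the Ebf family of transcription factors in the mouse, Ebf1, Ebf2, Ebf3 and Ebf4, and their zinc-finger partners Zfp521 and Zfp423. They were taken by symbol: all 6 symbols matched a single Ensembl identifier in the GENCODE M21 annotation, and all 6 identifiers were among the 44886 in the count tables. The tables hold the RNA of the embryonic striatum at E17.5, with 3 libraries per genotype, for which the study's methods give 3 brains. Embryos labelled Islet1Cre;Ebf1fl/- carried a floxed and a null Ebf1 allele and a Cre driven from the Islet1 locus, which recombines in direct pathway spiny projection neurons (dSPN) and cholinergic interneurons. Embryos labelled Dlx5/6::Cre;Ebf1fl/- carried the same Ebf1 alleles with a Cre transgene active in all spiny projection neurons (SPN) and in interneurons. The third group is labelled Control without a genotype. The study's methods say that heterozygous embryos served as controls, and that the Islet1Cre line was kept on a B6D2F1/J background while the other lines were on C57/Bl6. All dams carried 2 floxed alleles, so a floxed Ebf1 allele is shared by every group, controls included.

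Ebf proteins bind DNA as dimers through a zinc-coordinating domain and recognise a palindrome, in which TCCC and GGGA face each other across a short spacer. Ebf1 is best known for specifying B lymphocytes, where it acts with Pax5, Tcf3, Foxo1 and Ikzf1, and in the striatum it marks dSPN and is needed for their differentiation. Ebf2 and Ebf3 are known from Cajal-Retzius cells and other early neurons, and Ebf4 is the least studied of the family. Zfp423 and Zfp521 are large paralogous proteins with many zinc fingers that bind Ebf proteins and restrain them, recruit the NuRD histone deacetylase complex, and connect to BMP, Notch and retinoid signalling.

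Promoter windows, from 250 bases before to 50 bases after the annotated start of transcription, were read from RefSeq on GRCm38.p6. They were found for 4 of the 6 members, Ebf1, Ebf3, Ebf4 and Zfp423, and not for Ebf2 and Zfp521. Those of Ebf1 are shown because this is the gene the mutants were made to lose, and that of Foxo1, a partner of Ebf1 in B cells described further on, because it was the one gene of the pathway lists whose window held the full palindrome. Capitals mark that palindrome, searched as TCCCNNGGGA, which reads the same on both strands. The Ebf1 windows are chr11:44617850-44618149 and chr11:44619978-44620277, and the Foxo1 window is chr3:52268087-52268386, all on the plus strand.
Ebf1, first start: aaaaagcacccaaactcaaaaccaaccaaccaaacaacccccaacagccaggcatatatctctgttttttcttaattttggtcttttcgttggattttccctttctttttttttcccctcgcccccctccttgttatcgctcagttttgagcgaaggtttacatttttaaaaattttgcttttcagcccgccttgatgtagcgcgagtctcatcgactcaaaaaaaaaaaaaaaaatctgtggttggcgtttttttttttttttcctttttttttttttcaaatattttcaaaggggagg
Ebf1, second start: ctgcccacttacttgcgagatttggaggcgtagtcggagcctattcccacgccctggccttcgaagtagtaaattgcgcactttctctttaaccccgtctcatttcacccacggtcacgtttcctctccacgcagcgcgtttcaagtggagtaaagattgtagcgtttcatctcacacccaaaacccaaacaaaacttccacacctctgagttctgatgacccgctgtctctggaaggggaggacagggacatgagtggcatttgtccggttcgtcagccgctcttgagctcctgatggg
Foxo1: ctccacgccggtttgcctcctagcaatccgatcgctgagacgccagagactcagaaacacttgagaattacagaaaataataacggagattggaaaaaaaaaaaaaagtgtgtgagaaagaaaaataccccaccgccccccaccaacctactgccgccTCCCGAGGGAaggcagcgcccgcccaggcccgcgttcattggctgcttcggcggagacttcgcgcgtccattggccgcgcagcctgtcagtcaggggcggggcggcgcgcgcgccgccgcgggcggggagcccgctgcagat
No match lay in the 6 windows of the 4 members. The Foxo1 match began at position 159 of the window, counted from its upstream end. Foxo1 was picked after a search of 15 windows of NuRD genes, 25 of BMP, Notch and retinoid genes, 13 of B-lineage genes and 3 of olfactory genes. Across 32851 windows the palindrome occurred in 297, a share of 0.904%. Its core CCCNNGGG, which lies inside the palindrome, occurred in 13.7% of all windows, and in 2 of the 6 member windows, that of Ebf3 and the second of Zfp423. These matches describe the letters of the windows and carry no information on binding.

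Library depth ranged from 16548083 to 41507049 counted reads. SPN genes were high in every library: 6 markers of all SPN (Bcl11b, Foxp1, Ppp1r1b, Gad1, Gad2 and Meis2) summed to 2842 to 3520 counts per 1000000 reads (CPM, on library sizes adjusted by the trimmed mean of M values). This sum goes with the tissue label but does not measure neighbouring tissue, whose markers are given further on. A pair of libraries stood apart. Islet1Cre;Ebf1fl/- 3, the smallest, held both Xist (242 CPM) and 4 Y-linked genes (81.5 CPM summed), whereas the only other library with a high Y-linked sum, Control 2 (126 CPM), had Xist at 0.108 CPM. Control 3 held a lower Y-linked sum of 9.79 CPM beside Xist at 400.4 CPM, and the remaining 6 libraries had at most 0.120 CPM. Whether Islet1Cre;Ebf1fl/- 3 and Control 3 hold the RNA of a single embryo was not tested. Dlx5/6::Cre;Ebf1fl/- 1 had the highest sum of 5 cortical excitatory neuron markers (Tbr1, Neurod2, Neurod6, Slc17a7 and Emx1), 165 CPM against 29.1 to 84.4 CPM in the other 8. All 3 Dlx5/6::Cre;Ebf1fl/- libraries (165, 73.1 and 84.4 CPM) lay above every control (30.8 to 68.4 CPM) and every Islet1Cre;Ebf1fl/- library (29.1 to 54.3 CPM) in this sum. None of its genes passed the test in Dlx5/6::Cre;Ebf1fl/- against controls, where Neurod6 had a log2 fold change of 1.26 (adjusted p = 0.172 by edgeR) and Tbr1 one of 1.03 (adjusted p = 0.129). The part of cortical tissue in the Dlx5/6::Cre;Ebf1fl/- values was not tested. Embryo codes begin with IE in Control 1, Control 2 and all Islet1Cre;Ebf1fl/- embryos, and with D in Control 3 and all Dlx5/6::Cre;Ebf1fl/- embryos. What these letters stand for is not given in the sources used here, so values within each set of codes are given for Zfp521, Ikzf1 and Foxo1. They are not given for Reln and Foxp1, which also passed the test.

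Counted per length of exon (RPKM, CPM per kilobase), the members spanned more than 3 orders of magnitude in the control striatum. Ebf1 was highest at 36.1 ± 10.9 RPKM (SD, n = 3), followed by Zfp521 at 21.4 ± 2.61 and Ebf4 at 4.53 ± 0.738. Zfp423 stood at 1.6 ± 0.384 RPKM, and Ebf2 at 0.026 ± 0.0144 and Ebf3 at 0.0237 ± 0.0134 were close to the limit of counting. Every neighbouring pair in this order was separated in all controls except Ebf2 and Ebf3, whose ranges overlapped. Ebf1 made up 84.5 to 91.8% of the summed RPKM of the 4 Ebf genes in any library. In Dlx5/6::Cre;Ebf1fl/- embryos Zfp521, at 4.80 ± 0.111 RPKM, lay inside the range of Ebf4, which was 4.61 to 7.02 RPKM. In Islet1Cre;Ebf1fl/- embryos the mean of Ebf2, 0.0197 RPKM, was below that of Ebf3, 0.0255 RPKM, and their ranges again overlapped.

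**Figure D1:**
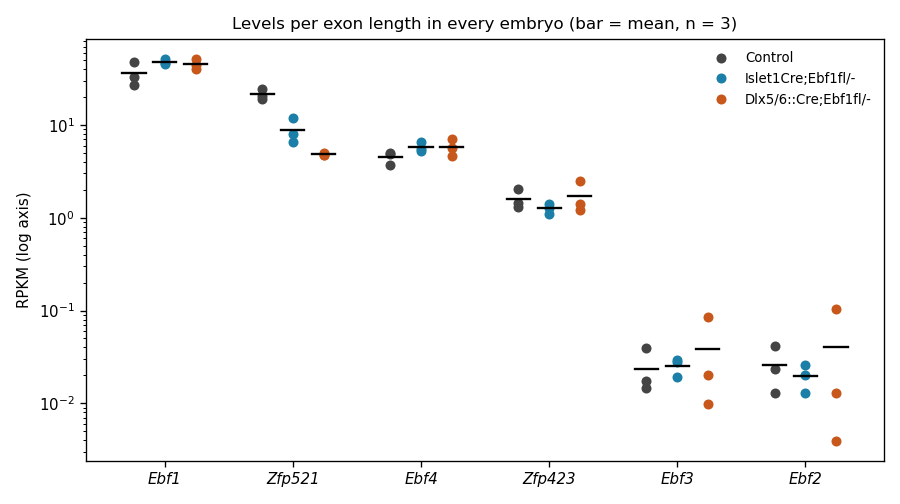
Levels of the 6 genes per length of exon, in RPKM on a log axis, in each embryo of the 3 genotypes (points) with the group mean (bar, n = 3). Ebf1 is highest in every group, Ebf2 and Ebf3 lie far below the others, and Zfp521 falls from 21.4 RPKM in controls to the level of Ebf4 in Dlx5/6::Cre;Ebf1fl/- embryos.

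The gene targeted in the mutants, Ebf1, lies on chromosome 11 (44617317 to 45008091, plus strand, GRCm38). Its level was 264, 470.4 and 322 CPM in the controls, 507, 459 and 439 CPM in the Islet1Cre;Ebf1fl/- embryos and 392, 434 and 506 CPM in the Dlx5/6::Cre;Ebf1fl/- embryos. No mutant library was lower than Control 1 or Control 3, and the control range reached into those of both mutants through Control 2. The log2 fold change against controls was 0.41 in Islet1Cre;Ebf1fl/- (95% interval 0.01 to 0.81, adjusted p = 0.599, edgeR quasi-likelihood test with Benjamini-Hochberg adjustment) and 0.33 in Dlx5/6::Cre;Ebf1fl/- (-0.06 to 0.73, adjusted p = 0.399). Neither passed the threshold of 0.05. The intervals begin at 101% and 95.7% of the control level, and whole-gene counts of Ebf1 below those levels lie outside them. With both genotypes together the log2 fold change was 0.37 (0.02 to 0.72, adjusted p = 0.350 by edgeR), and without Control 2 it was 0.64 and passed (adjusted p = 0.0350). A whole-gene count includes exons that a recombined allele can still transcribe, and the exons removed from these alleles are not given in the sources used here, so the count does not check the deletion. By immunostaining, the study reported that Ebf1 protein was missing from the striatum of both mutants at this age.

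Ebf1 is also known from pericytes and other mural cells, and from meningeal fibroblasts. Summed over 7 mural markers (Pdgfrb, Rgs5, Kcnj8, Abcc9, Cspg4, Notch3 and Vtn) the level was 151 to 185 CPM in controls, 148 to 158 in Islet1Cre;Ebf1fl/- and 141 to 194 in Dlx5/6::Cre;Ebf1fl/- embryos. The 7 meningeal fibroblast markers summed to 6.08 to 12.5 CPM over all libraries, with 3 of them below 1 CPM throughout. Their part in the Ebf1 counts was not tested. In bulk tissue, fewer cells of a type and less RNA per cell cannot be told apart, for Ebf1 or for any gene below.

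Ebf4, on chromosome 2 (130295169 to 130370481, plus strand), was the only other Ebf gene with counts well above the filter. It stood at 15.9, 16.1 and 11.9 CPM in controls, at 18, 20.98 and 17.0 CPM in Islet1Cre;Ebf1fl/- and at 22.7, 18.2 and 14.9 CPM in Dlx5/6::Cre;Ebf1fl/- embryos. All Islet1Cre;Ebf1fl/- libraries were above the controls, as were those of 7.77% of all genes tested, while the Dlx5/6::Cre;Ebf1fl/- libraries overlapped them. The log2 fold changes were 0.35 (-0.03 to 0.74, adjusted p = 0.708) and 0.34 (-0.04 to 0.72, adjusted p = 0.370), and neither passed the edgeR test.

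Ebf2, on chromosome 14 (67233292 to 67430918, plus strand), had 3, 6 and 9 reads in controls, 2, 6 and 3 in Islet1Cre;Ebf1fl/- and 20, 3 and 1 in Dlx5/6::Cre;Ebf1fl/- embryos. For Ebf3, on chromosome 7 (137193673 to 137314445, minus strand), the reads were 12, 5 and 5, then 6, 11 and 3, then 22, 3 and 7. Neither gene passed the filter on low counts, so 4 of the 6 members were tested. The highest count of both was in Dlx5/6::Cre;Ebf1fl/- 1, the library with the highest cortical markers. That library also had the highest sums of thalamic (17.4 CPM), choroid plexus (2.51 CPM), mural (194 CPM) and meningeal fibroblast markers (12.5 CPM). Its sum of pallidal and basal forebrain markers was the lowest (83.7 CPM). The part of any of these cells in the Ebf2 and Ebf3 counts was not tested. Of 6 Cajal-Retzius markers, Trp73, Lhx5 and Lhx1 were below 1 CPM in every library (at most 8 reads), while Reln, the secreted glycoprotein those cells are known for but do not alone express, stood at 130.1 to 193 CPM in controls, 53.6 to 127 CPM in Islet1Cre;Ebf1fl/- and 31.4 to 44.7 CPM in Dlx5/6::Cre;Ebf1fl/- embryos. The other two did not pass the edgeR test in either genotype. Calb2, a calcium-binding protein, averaged 5.77 CPM in controls, 9.21 CPM in Islet1Cre;Ebf1fl/- (log2 fold change 0.68, adjusted p = 0.279) and 9.09 CPM in Dlx5/6::Cre;Ebf1fl/- embryos (0.66, adjusted p = 0.166). Nhlh2, a transcription factor, had log2 fold changes of -0.52 (adjusted p = 0.978) and 0.58 (adjusted p = 0.562) in the same order. Reln fell in Dlx5/6::Cre;Ebf1fl/- (log2 fold change -2.07 ± 0.29 SE, adjusted p = 0.0053 by edgeR) and not past the threshold in Islet1Cre;Ebf1fl/- (-0.99, adjusted p = 0.209). Fitted without the filter, the edgeR log2 fold changes of Ebf2 against controls were -0.39 (-2.24 to 1.46) and 0.55 (-1.13 to 2.22), and those of Ebf3 were 0.15 (-1.32 to 1.61) and 0.65 (-0.74 to 2.04), in the order Islet1Cre;Ebf1fl/- and Dlx5/6::Cre;Ebf1fl/-. Each of these intervals spans 0.

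**Figure D2:**
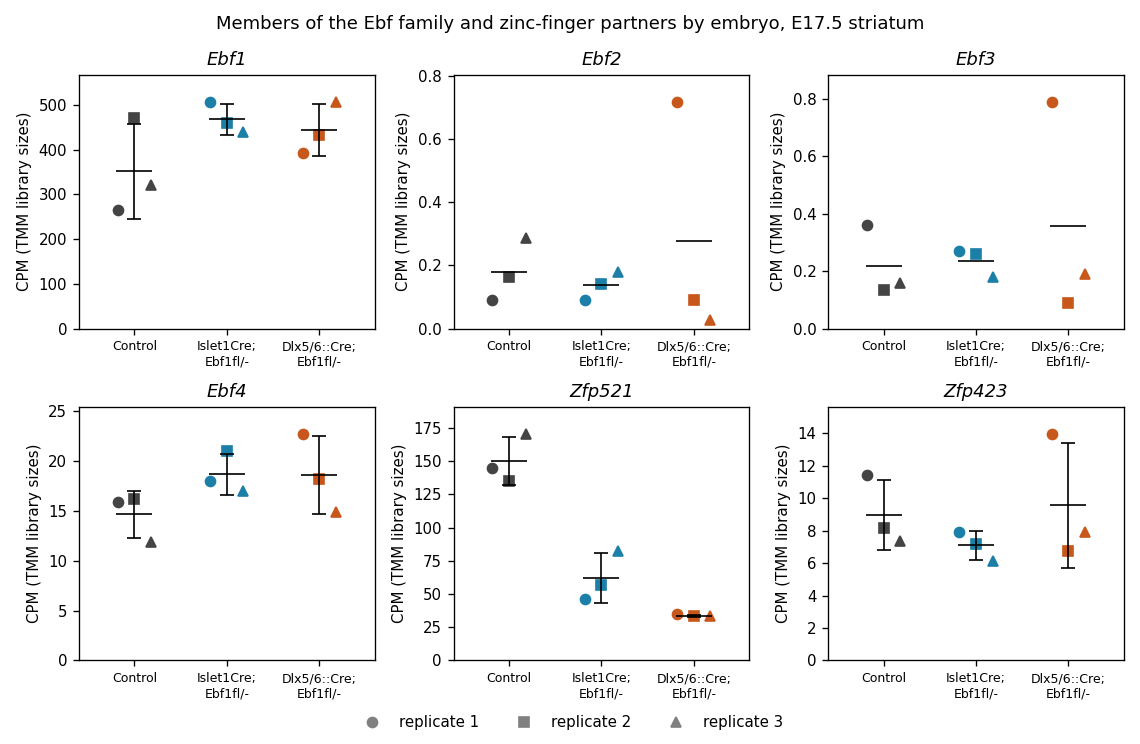
CPM of each of the 6 genes in each embryo (circle, replicate 1; square, replicate 2; triangle, replicate 3) by genotype, with the group mean as a horizontal bar and, for the 4 genes tested, the SD as a whisker (n = 3). Zfp521 separates all 3 genotypes, Ebf1 and Zfp423 overlap between every pair of genotypes, and the highest values of Ebf2, Ebf3, Ebf4 and Zfp423 belong to Dlx5/6::Cre;Ebf1fl/- 1.

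Zfp521, on chromosome 18 (13687013 to 13972787, minus strand), encodes the more abundant of the zinc-finger partners. The controls held 145, 135 and 171 CPM. The Islet1Cre;Ebf1fl/- embryos held 46.5, 56.4 and 82.7 CPM, all below every control, and the Dlx5/6::Cre;Ebf1fl/- embryos held 34.7, 33.3 and 33.3 CPM, all below every Islet1Cre;Ebf1fl/- embryo. The level thus stepped down from controls to Islet1Cre;Ebf1fl/- to Dlx5/6::Cre;Ebf1fl/- with no overlap. Among all genes tested, 7.45% were lower without overlap in Islet1Cre;Ebf1fl/- than in controls and 11.2% in Dlx5/6::Cre;Ebf1fl/-, and 5.24% were lower in Dlx5/6::Cre;Ebf1fl/- than in Islet1Cre;Ebf1fl/-.

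The edgeR log2 fold change of Zfp521 was -1.28 ± 0.17 (SE) in Islet1Cre;Ebf1fl/- (adjusted p = 0.0110), which left 41.1% of the control level (95% interval 31.5 to 53.6%). In Dlx5/6::Cre;Ebf1fl/- it was -2.15 ± 0.18 (adjusted p = 6.1e-04), which left 22.5% (17.1 to 29.6%). Zfp521 was the 1 member of 4 tested that passed in each comparison, where 0.971% and 2.39% of the 16368 genes did. Only 82 genes in the first comparison and 55 in the second had a log2 fold change as low, Zfp521 included. Over both genotypes the mutants averaged 47.8 CPM and the controls 150.1 CPM, and the exact two-sided permutation test of log2(CPM + 1) gave p = 0.0119, the smallest that 84 arrangements of 6 against 3 embryos allow. Here the edgeR log2 fold change was -1.72 ± 0.14 (adjusted p = 3.8e-04), where 2.76% of genes passed.

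The Islet1Cre;Ebf1fl/- call of Zfp521 was lost without Islet1Cre;Ebf1fl/- 2, where the log2 fold change was -1.22 and the edgeR adjusted p 0.0774. It was -1.54 without Islet1Cre;Ebf1fl/- 3, the library with both Xist and Y-linked reads, which was also the mutant nearest to the controls for Zfp521. Among embryos with IE codes it was -1.18 (adjusted p = 0.0238 by edgeR). For Dlx5/6::Cre;Ebf1fl/- among embryos with D codes, with a single control, it was -2.34.

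The direct comparison of the mutants gave a log2 fold change of -0.87 ± 0.18 for Zfp521 (interval -1.26 to -0.48), so the level in Dlx5/6::Cre;Ebf1fl/- was 54.7% of that in Islet1Cre;Ebf1fl/-. All Islet1Cre;Ebf1fl/- embryos had IE codes and all Dlx5/6::Cre;Ebf1fl/- embryos D codes, and the background of the Islet1Cre line also differed. Among the mutants alone, genotype therefore cannot be told apart from code letters or background, for Zfp521 or any other gene. A fit with the code letters as a covariate separates the letters only through the controls, with a single D code among them. The unadjusted edgeR p was 4.7e-04 and the adjusted p 0.868. No gene passed there (0%), against 844 genes, 5.16%, with an unadjusted p under 0.05. With DESeq2, which called 18 genes in this comparison, Zfp521 passed (adjusted p = 0.00226), and so it did in edgeR with no filter on low counts (0.00826, 13 genes). Without both libraries that stood apart it was -0.63 (adjusted p = 0.955).

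None of 5 dSPN markers set beside these levels passed the test in either genotype, and their signs differed. The sum of Drd1, Isl1, Foxp2, Tac1 and Pdyn was 452.5 to 643 CPM in controls, 511 to 575 CPM in Islet1Cre;Ebf1fl/- and 358 to 451.9 CPM in Dlx5/6::Cre;Ebf1fl/- embryos. Drd1, the dopamine receptor of dSPN, averaged 47.3 CPM in controls, 75.2 CPM in Islet1Cre;Ebf1fl/- (log2 fold change 0.67, adjusted p = 0.346 by edgeR) and 68.5 CPM in Dlx5/6::Cre;Ebf1fl/- embryos (0.53, adjusted p = 0.293). In Dlx5/6::Cre;Ebf1fl/- embryos all of these markers but Drd1 had negative log2 fold changes. The neuropeptide precursor genes Tac1 and Pdyn had -1.12 (adjusted p = 0.0776 by edgeR) and -0.77 (adjusted p = 0.232). Isl1 and Foxp2 had -0.40 (adjusted p = 0.0817) and -0.36 (adjusted p = 0.202). The sum of 6 indirect pathway markers (Drd2, Adora2a, Penk, Gpr6, Sp9 and Six3) was 501 to 572, 524 to 607 and 557 to 660 CPM in the same order. Foxp1, a transcription factor of all SPN, fell in Dlx5/6::Cre;Ebf1fl/- (log2 fold change -0.53 ± 0.11 SE, adjusted p = 0.0305 by edgeR). It was the only one of the 6 markers of all SPN past the threshold there. Bcl11b and Ppp1r1b also had negative log2 fold changes, -0.19 (adjusted p = 0.334 by edgeR) and -0.17 (adjusted p = 0.658). Those of Meis2 (0.41, adjusted p = 0.105), Gad1 (0.23) and Gad2 (0.15) were positive. The sum of the 6 was 2842 to 3349 CPM in controls and 2922 to 3520 CPM in Dlx5/6::Cre;Ebf1fl/- embryos. Neighbouring tissue varied too: 5 pallidal and basal forebrain markers summed to 119 to 152, 135 to 165 and 83.7 to 147 CPM, 4 thalamic markers to at most 17.4 CPM and 4 choroid plexus markers to at most 2.51 CPM. The part of cell composition in the Zfp521 values was not tested.

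Zfp423, on chromosome 8 (87661810 to 87959595, minus strand), is the paralogue of Zfp521. It stood at 11.4, 8.17 and 7.37 CPM in controls, 7.94, 7.18 and 6.13 CPM in Islet1Cre;Ebf1fl/- and 13.96, 6.77 and 7.92 CPM in Dlx5/6::Cre;Ebf1fl/- embryos, and the groups overlapped. Its log2 fold change was -0.34 (-0.94 to 0.26, adjusted p = 0.954) in Islet1Cre;Ebf1fl/- and 0.08 (-0.51 to 0.68, adjusted p = 0.914) in Dlx5/6::Cre;Ebf1fl/-, by edgeR. The positive sign in Dlx5/6::Cre;Ebf1fl/- turned when either of 2 libraries was left out, to -0.29 without Dlx5/6::Cre;Ebf1fl/- 1 and to -0.04 without Control 3. The highest Zfp423 levels in the controls and in the Dlx5/6::Cre;Ebf1fl/- embryos were in Control 1 and Dlx5/6::Cre;Ebf1fl/- 1. These libraries also had the highest cortical marker sums of their groups, 68.4 and 165 CPM. In the third group the highest cortical sum, 54.3 CPM, was in Islet1Cre;Ebf1fl/- 3, which had the lowest Zfp423 of all libraries (6.13 CPM). The part of cortical tissue in Zfp423 was not tested.

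**Figure D3:**
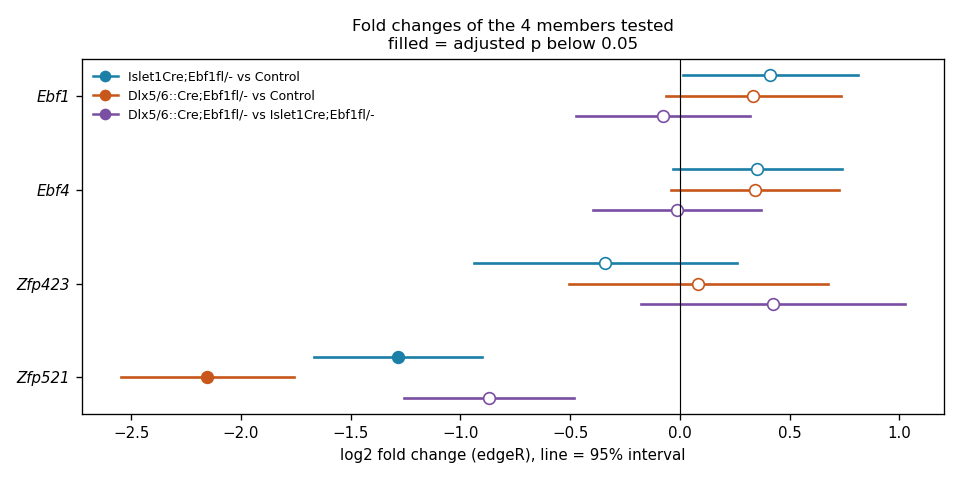
log2 fold changes of the 4 genes tested with their 95% intervals, for each mutant genotype against controls and for the mutants against each other. Filled points passed an adjusted p of 0.05, which only Zfp521 did, at -1.28 in Islet1Cre;Ebf1fl/- and -2.15 in Dlx5/6::Cre;Ebf1fl/-; the intervals of Ebf1, Ebf4 and Zfp423 in Dlx5/6::Cre;Ebf1fl/- include 0.

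Ratios taken inside a library do not depend on the scaling between libraries. For every 100 reads of Ebf1 the controls had 54.8, 28.7 and 53.0 reads of Zfp521. The Islet1Cre;Ebf1fl/- embryos had 9.18, 12.3 and 18.8, and the Dlx5/6::Cre;Ebf1fl/- embryos 8.86, 7.67 and 6.59. Every mutant ratio was below every control ratio. On the log2 scale the mean was -1.19 ± 0.53 in controls, -2.96 ± 0.52 in Islet1Cre;Ebf1fl/- and -3.71 ± 0.21 in Dlx5/6::Cre;Ebf1fl/- (SD, n = 3). The log2 fold changes of Ebf1, 0.41 and 0.33 against controls, did not pass but also lower this ratio. The share of all genes whose ratio to Ebf1 separates in this way was not computed. Between the paralogues, each library held more reads of Zfp521 than of Zfp423 by a factor of 12.7, 16.5 and 23.1 in controls, 5.85, 7.86 and 13.5 in Islet1Cre;Ebf1fl/- and 2.48, 4.92 and 4.21 in Dlx5/6::Cre;Ebf1fl/- embryos. The Islet1Cre;Ebf1fl/- 3 ratio lay inside the control range, and the Dlx5/6::Cre;Ebf1fl/- ratios were below all others. Ebf4 over Ebf1, in contrast, had log2 means of -4.56 ± 0.44, -4.65 ± 0.19 and -4.59 ± 0.49 in the 3 genotypes, which differ by less than the spread between embryos.

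**Figure D4:**
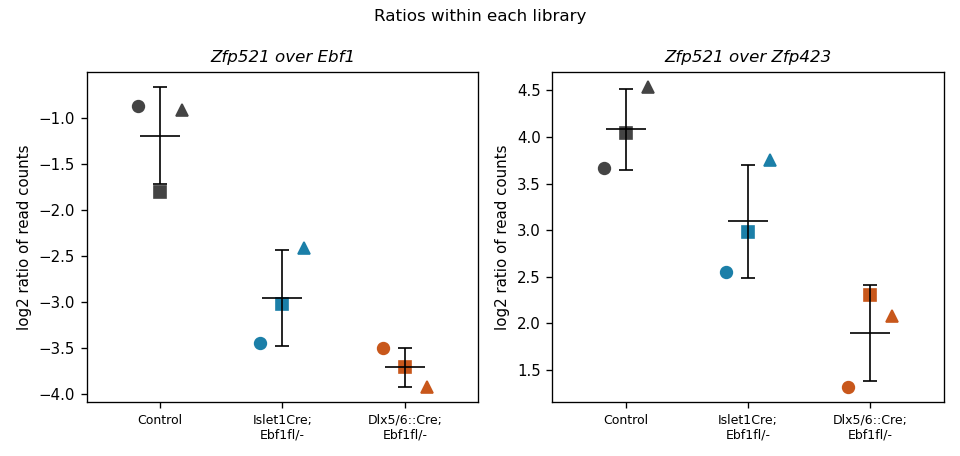
log2 ratio of read counts within each library for Zfp521 over Ebf1 (left) and Zfp521 over Zfp423 (right), by genotype, with the mean and SD (n = 3) and the marker shape giving the replicate number. Zfp521 over Ebf1 lies between -0.87 and -1.80 in controls and between -2.41 and -3.92 in the mutants.

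Of 15 genes that Ebf1 is known to work with or to switch on in B lymphocytes, 6 passed the filter on low counts. The 9 others included Pax5, Cd79a, Cd79b, Rag1 and Rag2, and 3 markers of B cells (Cd79a, Cd79b and Ms4a1) summed to at most 0.449 CPM in any library. Among the 6 tested, 1 fell and none rose in Islet1Cre;Ebf1fl/-, and 2 fell and none rose in Dlx5/6::Cre;Ebf1fl/-. Lower calls made up 0.501% and 1.34% of all genes tested in these comparisons. The list's median log2 fold change was -0.06 and 0.02, near the medians of all genes, -0.0016 and 0.01.

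Ikzf1 encodes Ikaros, a zinc-finger regulator of lymphoid development. It stood at 203, 116 and 131 CPM in controls, 62.2, 64.5 and 81.4 CPM in Islet1Cre;Ebf1fl/- and 69.9, 72.5 and 66.7 CPM in Dlx5/6::Cre;Ebf1fl/- embryos. All mutants lay below all controls, and the mutants overlapped each other. Of all genes tested, 7.45% lay below all controls in Islet1Cre;Ebf1fl/- and 11.2% in Dlx5/6::Cre;Ebf1fl/-. Ikzf1 fell in both genotypes. It fell by a log2 fold change of -1.12 ± 0.18 (adjusted p = 0.0229) and -1.11 ± 0.18 (adjusted p = 0.0122). Its first call was lost without Islet1Cre;Ebf1fl/- 1 (-1.04, adjusted p = 0.135) or Islet1Cre;Ebf1fl/- 2 (-1.07, adjusted p = 0.148), and its second without Dlx5/6::Cre;Ebf1fl/- 3 (-1.08, adjusted p = 0.0508) or with the code letters as a covariate (-0.91, adjusted p = 0.266), all by edgeR. Among embryos with IE codes the first was -1.20 (adjusted p = 0.0289 by edgeR). Among embryos with D codes, with a single control, the second was -0.92.

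Foxo1, the forkhead factor whose promoter window is printed above, stood at 71.7, 65.7 and 92.95 CPM in controls. It held 40.2, 42.4 and 64.9 CPM in Islet1Cre;Ebf1fl/- and 17.4, 31.2 and 33.8 CPM in Dlx5/6::Cre;Ebf1fl/- embryos. The genotypes stepped down without overlap, though the highest Islet1Cre;Ebf1fl/- value, 64.9 CPM, lay close to the lowest control, 65.7 CPM. Of all genes tested, 7.45% were lower without overlap in Islet1Cre;Ebf1fl/- than in controls and 11.2% in Dlx5/6::Cre;Ebf1fl/-. Between the mutants 5.24% were lower in Dlx5/6::Cre;Ebf1fl/-. The edgeR log2 fold change was -1.48 ± 0.25 in Dlx5/6::Cre;Ebf1fl/- (adjusted p = 0.0134) and -0.65 ± 0.25 in Islet1Cre;Ebf1fl/- (adjusted p = 0.458), and the difference between the mutants did not pass (-0.83, adjusted p = 0.868). The call in Dlx5/6::Cre;Ebf1fl/- was lost without Control 1 (-1.53, adjusted p = 0.0503), without Control 3 (-1.32, adjusted p = 0.0544) and with the code letters as a covariate (-1.75, adjusted p = 0.0780). Among embryos with D codes, with a single control, it was -1.76. In Islet1Cre;Ebf1fl/- among embryos with IE codes it was -0.48 (adjusted p = 0.426 by edgeR). Without both libraries that stood apart Foxo1 passed in either genotype, at -0.89 (adjusted p = 0.0104) in Islet1Cre;Ebf1fl/- and -1.24 (adjusted p = 0.00149) in Dlx5/6::Cre;Ebf1fl/-. Tcf3, an E protein that partners Ebf1, did not pass in either genotype (0.12, adjusted p = 0.999, and 0.32, adjusted p = 0.521).

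All 15 NuRD subunits were tested, and 0 passed in either comparison with controls by edgeR or DESeq2, with 0 at an unadjusted p under 0.05. Their log2 fold changes lay between -0.21 and 0.16 in Islet1Cre;Ebf1fl/- and between -0.23 and 0.36 in Dlx5/6::Cre;Ebf1fl/-. Chd3, a remodelling ATPase of the complex, stood at 1228 to 1454 CPM over all libraries, and Hdac2, a histone deacetylase in it, stood at 305 to 363 CPM.

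Of 20 BMP, Notch and retinoid partners tested, again 0 passed by edgeR, with 2 and 5 at an unadjusted p under 0.05 in Islet1Cre;Ebf1fl/- and Dlx5/6::Cre;Ebf1fl/-, and median log2 fold changes of -0.02 and 0.17. The largest in Dlx5/6::Cre;Ebf1fl/-, Notch1 at 0.64 (adjusted p = 0.434), was set by Dlx5/6::Cre;Ebf1fl/- 1, which held 82.4 CPM against 25.0 to 32.4 CPM in every other library. Id4, a BMP target that encodes an inhibitor of basic helix-loop-helix factors, came closest to the threshold, at 0.43 in Dlx5/6::Cre;Ebf1fl/- (adjusted p = 0.0817), and passed with DESeq2 (0.0174) and without the filter on low counts (0.0201). Its level was 85.0, 81.4 and 64.6 CPM in controls and 106, 105 and 101 CPM in Dlx5/6::Cre;Ebf1fl/- embryos. Parp1 and Smad5, the 2 most abundant of this list by count, had no library outside 115 to 136 CPM for Smad5, and for Parp1 136 to 160.3 CPM except 211 CPM in Dlx5/6::Cre;Ebf1fl/- 1.

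The Ebf proteins were also found as factors of olfactory neurons, and 4 olfactory transduction genes with known sites were followed. Of these 3 were tested and 0 passed by edgeR or DESeq2, with 0 at an unadjusted p under 0.05. Gnal, the G protein of olfactory and striatal dopamine signalling, stood at 506 to 871 CPM, lowest in Dlx5/6::Cre;Ebf1fl/- 1, and Adcy3 at 50.3 to 66.8 CPM, while Omp did not pass the filter.

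Genes whose level followed a member most closely over the 9 embryos were ranked by Pearson's r of log2(CPM + 1) among 13923 genes with a mean of at least 1 CPM. These are descriptions over 9 libraries of 3 genotypes, and a gene that differs between genotypes raises r with any other that does. For Zfp521 the closest were Stra6l (r = 0.995), Tmem200c (0.981), Fblim1 (0.977), Chst15 (0.974) and Cd2 (0.970). After each genotype's mean was removed, r with Zfp521 was 0.911 for Stra6l, 0.760 for Tmem200c, 0.585 for Fblim1, 0.619 for Chst15 and 0.570 for Cd2. Stra6l, a relative of the retinol transporter Stra6, had a mean of 17.2 ± 1.69 CPM in controls, 8.34 ± 2.13 in Islet1Cre;Ebf1fl/- and 4.78 ± 0.334 in Dlx5/6::Cre;Ebf1fl/- embryos. Chst15, a chondroitin sulfotransferase, had means of 82.9 ± 10.02, 39.0 ± 7.42 and 26.5 ± 4.87 CPM in the same order. Cd2, a lymphocyte adhesion receptor, had 3.795 ± 0.389, 1.30 ± 0.343 and 0.750 ± 0.169 CPM.

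The genes most like Ebf1 were Wwc2 (r = 0.971), Npffr1 (0.970), Asb4 (0.958), Ppp1r7 (0.940) and Rap2c (0.939), and their r with the genotype means removed was 0.947 to 0.965. None of the 5 passed against controls in either genotype. Npffr1, a neuropeptide FF receptor, had means of 1.35 ± 0.802 CPM in controls, 2.68 ± 0.1004 in Islet1Cre;Ebf1fl/- and 2.37 ± 0.494 in Dlx5/6::Cre;Ebf1fl/- embryos. For Ebf4 the closest genes were Igdcc3 (0.932) and Ninl (0.921), and for Zfp423 they were Trim8 (0.988) and Tjp3 (0.976).

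**Figure D5:**
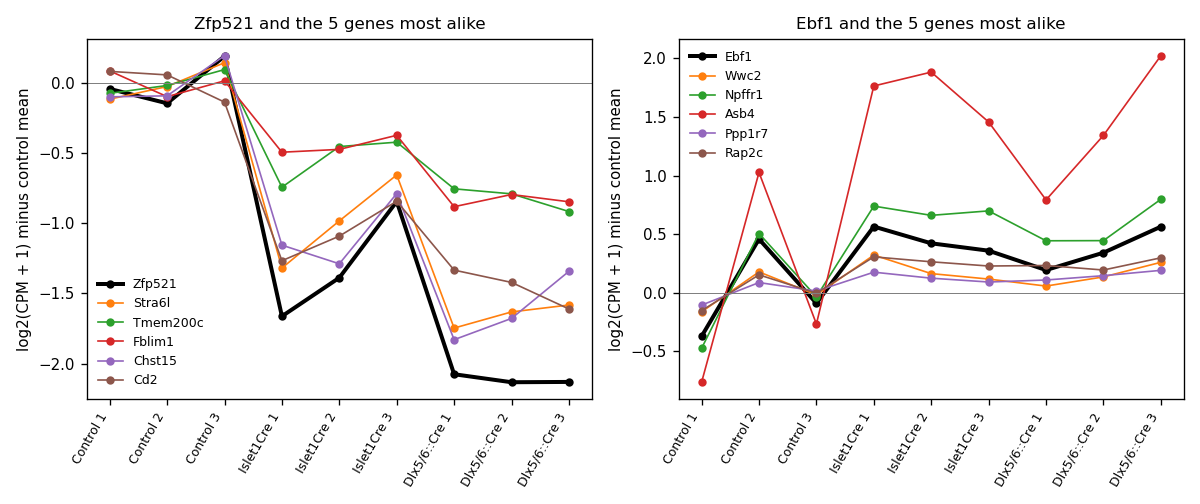
log2(CPM + 1) in each embryo minus the control mean, for Zfp521 (left, black) and Ebf1 (right, black) with the 5 genes most alike each. On the left the group means of all lines step down from controls to Islet1Cre;Ebf1fl/- to Dlx5/6::Cre;Ebf1fl/-, while on the right Control 2 is the highest control in every line.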

How the data were processed

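Poly(A) RNA of the E17.5 striatum of 9 embryos was sequenced as stranded libraries. According to the study's methods, the authors filtered reads, aligned them to the Ensembl 81 mouse genome with STAR 2.4.0k, removed reads that aligned more than once, and counted the rest per gene with HTSeq 0.5.3. The strand setting of the counting is not given in the sources used here. The deposited values are raw counts per gene, without normalization. Groups and replicate numbers came from the sample titles.

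Gene names, positions and lengths came from GENCODE M21 (44048 of 44886 identifiers matched). No gene with an exon overlapping a member was in the tables. edgeR 4.0.16 (R 4.3.3) kept genes by filterByExpr (minimum count 10, 16368 genes), used trimmed mean of M values library sizes and fitted all 9 libraries with 1 term per genotype, and 4 comparisons were tested by quasi-likelihood with Benjamini-Hochberg adjustment at 0.05 over all genes. SE is the log2 fold change divided by the root of F, and intervals are 95%. Libraries were taken as single embryos, which was not tested for Islet1Cre;Ebf1fl/- 3 and Control 3. The p-values therefore measure the spread between libraries. RPKM used the exon union. The exact two-sided permutation test was run on log2(CPM + 1). Libraries of a group differed beyond sampling noise (chi-square per degree of freedom at least 10.1), so none was a duplicate. The fit was tested on simulated data. Alternatives were DESeq2 1.42.0, its size factors, other filters, the code letters, the replicate number, longest transcripts, a pseudocount of 0.1 and leaving out each library. Omission of both libraries that stood apart was chosen after seeing the data. The members, lists and marker sets were chosen with earlier results of these data known. Named are the 6 members, up to 5 passing genes per list or else its 2 highest, and the genes most alike each tested member. Ebf1 and Zfp521 got 5 such genes and the others 2. Notch1, Id4, Tcf3 and the low-count genes are named beyond that rule, after their values were seen. Some genes of the lists are not reported here and were left out of the counts and sums.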

Additional observations from a re-analysis of the deposited data

How the results depend on the processing

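Zfp521 stayed below controls in every alternative run. In Dlx5/6::Cre;Ebf1fl/- and over both genotypes it passed in all of them. In Islet1Cre;Ebf1fl/- it passed in all 9 alternatives other than leaving out 1 library, and in 8 of 9 that did (log2 fold change -1.54 to -1.12, members called 0 to 1). The loss came without Islet1Cre;Ebf1fl/- 2. The Zfp521 difference between the mutants was -1.04 to -0.61 with 1 library left out and passed in none of those. It passed with DESeq2 (-0.87, adjusted p = 0.00226) and when low counts were kept (-0.87, adjusted p = 0.00826), which raised the members called from 0 to 1. The cause was not tested.

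Signs of values that did not pass turned in several alternatives. Zfp423 in Dlx5/6::Cre;Ebf1fl/- ranged from -0.29 to 0.29 with 1 library left out and was -0.29 without both libraries that stood apart, and between the mutants it was -0.037 without both. Over both genotypes Zfp423 ranged from -0.31 to 0.082. Between the mutants, Ebf1 was 0.12 and Ebf4 0.42 with the code letters as a covariate, and with 1 library left out they ranged from -0.19 to 0.0061 and from -0.18 to 0.11. Ebf1 over both genotypes ranged from 0.20 to 0.64, passing only without Control 2, where 2 members were called instead of 1 (range 1 to 2). The mean difference of Ebf2 in the permutation test was 0.01 with a pseudocount of 1 and -0.094 with 0.1.

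Of the B-lineage list, 2 genes were called in Islet1Cre;Ebf1fl/- without both libraries that stood apart instead of 1, and 0 in Dlx5/6::Cre;Ebf1fl/- with the code letters instead of 2. Of the BMP, Notch and retinoid list, 1 gene (Id4) was called in Dlx5/6::Cre;Ebf1fl/- with DESeq2 and 1 with no filter on low counts, instead of 0. With the longest transcript in place of all exons the control levels were 58.9 RPKM for Ebf1, 24.2 for Zfp521 and 0.0438 for Ebf3, which then stood above Ebf2 (0.0346). The replicate numbers did not pair the embryos (correlation of deviations -0.25 to 0.25 over 9 same-numbered pairs). With a replicate block Zfp521 was -1.30 (adjusted p = 0.0104) in Islet1Cre;Ebf1fl/- and -2.14 (adjusted p = 0.00100) in Dlx5/6::Cre;Ebf1fl/-, and the block changed no call of a member.

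The 3 embryos per group, the single control with a D code and the low counts of Ebf2 and Ebf3 set the limits of these values.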
